A study of Mus musculus with 12 samples.

Results

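The colony-stimulating factor axis and its myeloid transcription factors were followed in mouse lumbar spinal cord as 8 genes of the 33906 identifiers in the tables. They were chosen by name: the ligands Csf1 and Il34, the receptor genes Csf1r, Csf2ra, Csf2rb and Csf3r, and the transcription factors Spi1 and Irf8. All 8 were listed and all 8 passed the filter on low values, which left 18118 genes to test. The cords came from 12 mice in 4 groups of 3, each mouse a separate animal. H1, H2 and H4 formed group H, of healthy wild-type mice. The remaining 9 mice were of a model of amyotrophic lateral sclerosis (ALS), a disease in which motor neurons degenerate. P66, P67 and P74 formed group P, fed with phosphate-buffered saline (PBS). C79, C84 and C85 formed group C, treated with manganese-doped carbon dots (Mn@CDs), particles that the series title calls nanozymes with an activity like that of superoxide dismutase. E75, E77 and E90 formed group E, which was taken to be the group given edaravone, a radical scavenger and ALS drug. That reading is by elimination, since the study's text names E among its codes and then gives edaravone the letter D. The sources used here do not give the model's transgene, strain, age or sex, nor the dose and duration of a treatment, and neither agent was given to a wild-type group.

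Csf1 and Il34 are the 2 ligands of the receptor tyrosine kinase encoded by Csf1r, on which microglia, the resident macrophages of the central nervous system, depend for survival and renewal. In the mouse brain and cord, neurons are a main source of Il34 and glial cells of Csf1. Csf2ra and Csf2rb encode the ligand-binding and the common signalling chain of the receptor for granulocyte-macrophage colony-stimulating factor. Csf3r encodes the receptor for granulocyte colony-stimulating factor, a hallmark of neutrophils that microglia also express. Spi1 encodes PU.1, the ETS factor that directs the myeloid lineage, and Irf8 encodes a partner of PU.1 needed for microglial identity.

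Recovered reads came to 16.8 to 19.8 M per library. Levels are FPKM, reads per kilobase of exon per M reads, so they can be set beside each other between genes. Differences are of mean log2(FPKM + 1) and are given ± the standard error of the fit, which understates the change of low genes. A gene is called when the adjusted p of limma's two-sided test over all 18118 genes is under 0.05. In bulk tissue, fewer cells of a type and less RNA per cell cannot be told apart. Some libraries stood apart in tissue markers. The summed level of 3 skeletal muscle genes was 8.65 to 1164 FPKM in H, 1.69 to 80.6 in P, 0.294 to 1.10 in C and 0.756 to 19.2 in E. That of 3 Schwann cell genes was 37.3 to 111.7 FPKM in H, 145.2 to 220 in P, 65.7 to 171.6 in C and 351.8 to 811.2 in E. That of 4 meningeal genes was 3.89 to 18.6 FPKM in H, 27.1 to 56.5 in P, 19.3 to 44.2 in C and 114.4 to 237 in E. Both sets lay above H in every P and E library. In C the meningeal set also lay above H in every library, and the Schwann cell set overlapped H. The summed level of 2 hemoglobin genes was 356.6 to 2289 FPKM in H, 111.7 to 271.2 in P, 183.3 to 348.2 in C and 96.1 to 234.9 in E, and both were called lower in P and in E against H. The part of these markers in the results below was not tested.

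Promoter sequence from RefSeq, on GRCm38.p6, was matched for 4 of the 8 genes (Csf1, Csf2ra, Csf3r and Irf8). It covers 250 bases before and 50 after the start, and was searched on both strands. The letters searched were GAGGAA (a PU.1 core), GGAANNGAAA (an ETS-IRF composite), GAAANNGAAA (interferon response), TTGCNNAA (C/EBP), TTCNNNGAA (STAT), TGANTCA (AP-1) and GGGNNTTTCC (NF-kB). The upstream 250 bases of 3 of them are shown because a ligand, a receptor chain and a transcription factor of the axis held different letters there. They are written 5′ to 3′ on the strand of the gene, with the matches in capitals.
Csf1, chr3:107760470-107760719, minus strand: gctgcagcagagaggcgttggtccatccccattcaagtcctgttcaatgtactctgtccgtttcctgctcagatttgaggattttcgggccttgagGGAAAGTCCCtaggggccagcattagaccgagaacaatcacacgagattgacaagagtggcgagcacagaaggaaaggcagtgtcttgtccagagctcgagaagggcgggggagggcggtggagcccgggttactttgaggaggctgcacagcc
Csf2ra, chr19:61228419-61228668, minus strand: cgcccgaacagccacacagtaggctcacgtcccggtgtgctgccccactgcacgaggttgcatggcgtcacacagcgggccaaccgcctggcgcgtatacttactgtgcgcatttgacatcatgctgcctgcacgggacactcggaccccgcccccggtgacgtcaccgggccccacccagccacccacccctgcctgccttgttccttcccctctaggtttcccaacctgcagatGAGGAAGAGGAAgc
Irf8, chr8:120736108-120736357, plus strand: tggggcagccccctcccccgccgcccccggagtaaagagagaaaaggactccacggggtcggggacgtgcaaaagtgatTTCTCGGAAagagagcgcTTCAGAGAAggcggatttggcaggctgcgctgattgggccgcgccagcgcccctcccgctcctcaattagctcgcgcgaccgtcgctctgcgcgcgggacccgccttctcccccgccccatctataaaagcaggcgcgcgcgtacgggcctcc
The Csf1 sequence held 1 match to the NF-kB letters, in reverse, beginning at base -154 from the start. These letters were present in 1.63% of the 32851 promoters in the table. Csf2ra held 2 adjoining PU.1 cores at -14 and -8, and Csf3r held 1 at -86. Positions count from the RefSeq start, which lies 11 bases inside the GENCODE gene for Csf2ra and 109 for Csf3r. The match of Csf3r and that of Csf2ra at -8 therefore lie within the gene coordinates given below. The PU.1 core was common, at 28.3% of promoters. Irf8 held 2 matches to the STAT letters, at -171 and -153, a pattern present in 8.3% of promoters. No match to the ETS-IRF, interferon response, C/EBP or AP-1 letters was found in the 4 windows, against 2.72, 3.44, 10.8 and 7.81% of all promoters. A match is a description of the letters and not evidence of binding.

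Every member except Il34 was higher in the saline-treated model mice than in healthy mice. The largest difference was that of Csf3r (2.19 ± 0.22), followed by Irf8 (1.88 ± 0.23), Spi1 (1.56 ± 0.22) and Csf1r (1.53 ± 0.19). In P against H, 7 of the 8 members were called and all 7 were higher, where 12.2% of all genes tested were called higher and 15.5% in either direction. The median difference over the 8 was 1.43, beside 0.07 over all genes tested. In the same 7 genes the lowest P library lay above the highest H library, and over all genes tested the libraries of these groups did not overlap in 35.2%.

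**Figure D1:**
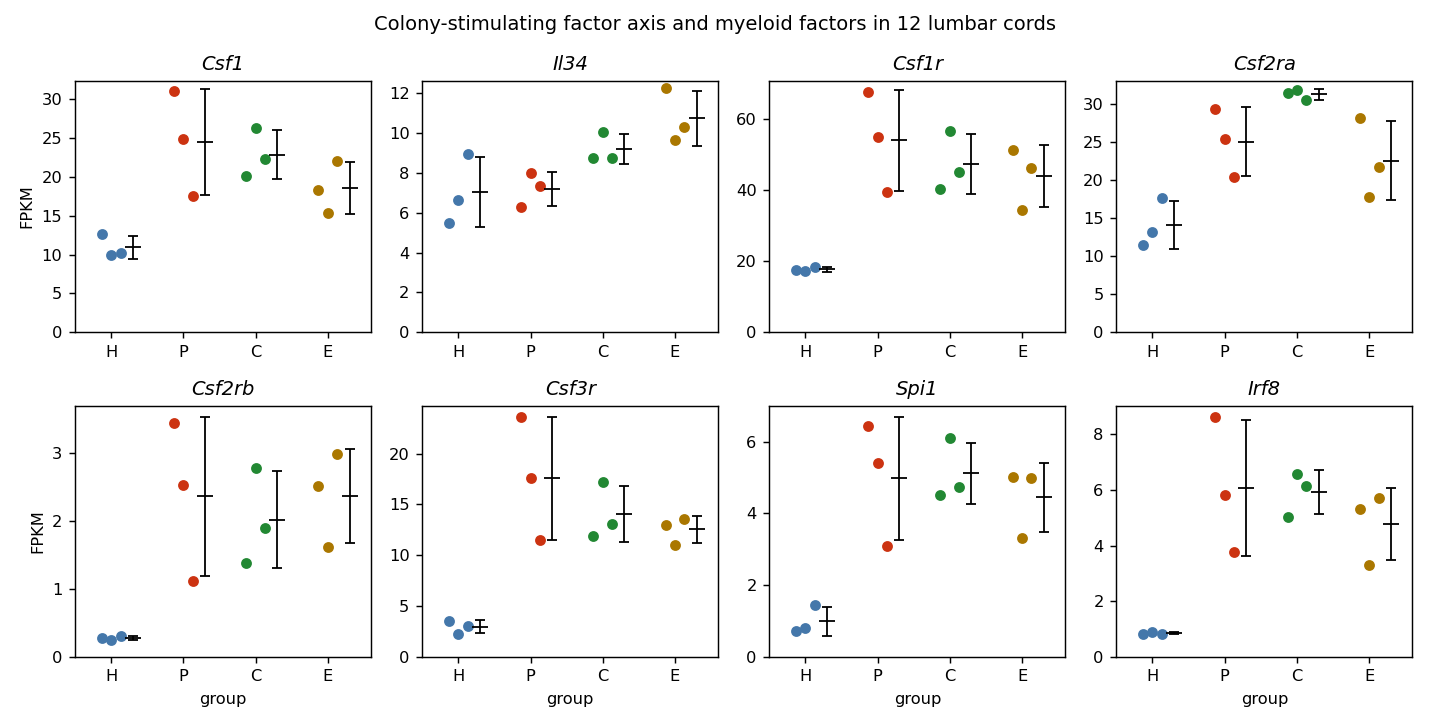
FPKM of the 8 genes (vertical axes, from 0) in each library of groups H, P, C and E (horizontal axes); points are mice and the black mark with its bar is the group mean ± SD (n = 3). In all panels except that of Il34 the 3 points of H lie below all 9 of the model groups, while P, C and E overlap in most panels. Over all genes tested, the libraries of P and H did not overlap in 35.2%. The share for all 9 model libraries against H is not given here.

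Csf1, on chromosome 3 (107741048-107760469, minus strand), encodes macrophage colony-stimulating factor. It stood at 12.6 FPKM in H1, 9.94 in H2 and 10.3 in H4. The model mice had 31.1, 24.9 and 17.5 FPKM in P66, P67 and P74, 20.1, 26.3 and 22.3 in C79, C84 and C85, and 18.3, 15.4 and 22.02 in E75, E77 and E90. All 9 model libraries lay above the 3 healthy ones, and the model groups overlapped. The mean of P was 2.24 times that of H, with a log2 difference of 1.07 ± 0.19 (limma, adjusted p = 0.0049). The difference was 0.999 ± 0.19 in C (adjusted p = 0.0090) and 0.71 ± 0.19 in E (adjusted p = 0.030). The call in E was lost in 6 of 18 alternatives, among them without E75, E90, H2 or H4 and with median-ratio scaling, where adjusted p was 0.064 to 0.116.

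Il34, on chromosome 8 (110741829-110805924, minus strand), encodes interleukin-34, the other ligand of the Csf1 receptor. Its levels were 5.51, 6.65 and 8.98 FPKM in H1, H2 and H4, against 6.27, 7.97 and 7.36 in P66, P67 and P74. They were 8.76, 10.1 and 8.77 FPKM in C79, C84 and C85 and 12.3, 9.63 and 10.3 in E75, E77 and E90. Groups H and P overlapped throughout, whereas the 3 libraries of E were above every library of H and P. The difference of P from H was 0.04 ± 0.15 (limma, adjusted p = 0.864), with a 95% interval from -0.28 to 0.37. That of C was 0.36 ± 0.15 (adjusted p = 0.149) and that of E 0.56 ± 0.15 (adjusted p = 0.028). The E call was lost in 8 of 18 alternatives, among them limma-voom, median-ratio scaling and fits without E75, E90, H1 or H2 (adjusted p 0.055 to 0.093), and without H4 the difference of C was called (0.53, adjusted p = 0.028). Il34 overlaps 2 antisense transcripts, Gm15895 and Gm15894, which reached at most 0.244 and 0.173 FPKM.

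The balance of the ligands was described as the ratio of their levels in each library. It was tested as the difference of their log2(FPKM + 1), and no comparison passed. FPKM of Csf1 over that of Il34 was 2.30, 1.49 and 1.14 in H1, H2 and H4, against 4.95, 3.13 and 2.38 in P66, P67 and P74. It was 2.29, 2.61 and 2.55 in C79, C84 and C85 and 1.496, 1.60 and 2.14 in E75, E77 and E90. The 3 P libraries lay above all of H and E, C lay within the range of P and H together, and E lay within the range of H. As the difference of log2(FPKM + 1) per library, the balance was 0.59 ± 0.45 in H, 1.61 ± 0.50 in P, 1.22 ± 0.10 in C and 0.73 ± 0.26 in E (SD, n = 3). The 2 measures order some libraries differently. C79 lay just below H1 by the ratio (2.293 against 2.297) and above it by the difference (1.11 against 1.07). The exact permutation test (two-sided) gave p = 0.1 for P against H, C against H, E against P and C against E, the smallest p that 3 against 3 allows. It gave 0.3 for C against P, 0.7 for E against H and 0.064 for the 9 model mice against H. After Benjamini-Hochberg adjustment over the 7 comparisons the values ran from 0.14 to 0.7, so none passed.

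**Figure D2:**
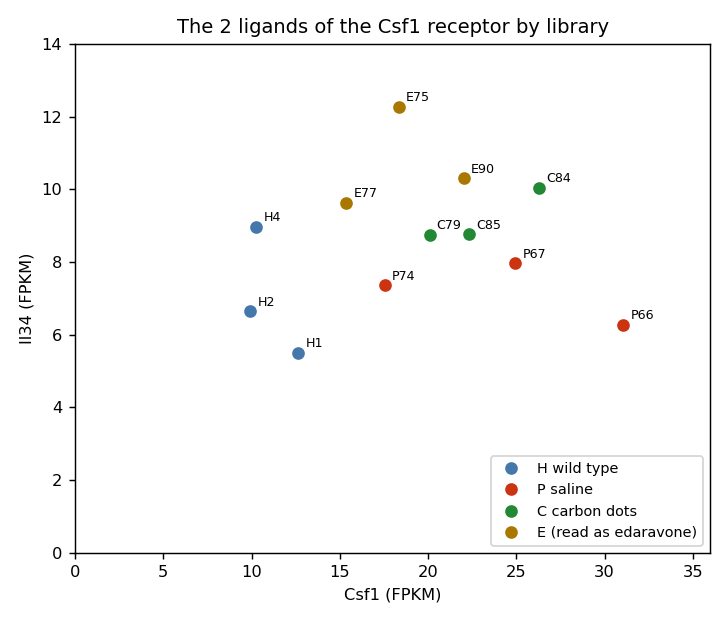
FPKM of Csf1 (horizontal axis) against FPKM of Il34 (vertical axis), 1 labelled point per library, coloured by group. The H libraries lie at Csf1 of 9.94 to 12.6 FPKM; P66 has the highest Csf1 (31.1 FPKM) with Il34 of 6.27 FPKM, and E75 the highest Il34 (12.3 FPKM).

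Among the receptors, Csf1r was the most abundant. This gene on chromosome 18 (61100598-61132149, plus strand) stood at 17.6, 17.1 and 18.4 FPKM in H1, H2 and H4. It reached 67.7, 54.8 and 39.4 FPKM in P66, P67 and P74, 40.2, 56.7 and 45.003 in C79, C84 and C85, and 51.4, 34.4 and 46.3 in E75, E77 and E90. The healthy libraries lay close together, and the lowest model library, E77, was above all of them. Csf1r rose by 1.53 ± 0.19 in P (3.06 times the mean of H, limma adjusted p = 0.00093), by 1.36 ± 0.19 in C (adjusted p = 0.0022) and by 1.25 ± 0.19 in E (adjusted p = 0.0024). These calls held in all 18 alternatives. In each library Csf1r exceeded its ligand Csf1, 1.39 to 1.79 times in H, 2.18 to 2.25 times in P, 2.00 to 2.16 times in C and 2.10 to 2.80 times in E. The gene overlaps Hmgxb3 on the opposite strand, which stood at 4.35 to 6.54 FPKM, and reads of both cannot be told apart without the strand setting.

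Csf2ra and Csf2rb, the 2 chains of the same receptor, stood far apart in level and in change. Csf2ra, on chromosome 19 (61223957-61228429, minus strand), was 11.5, 13.2 and 17.6 FPKM in H1, H2 and H4, against 29.4, 25.5 and 20.4 in P66, P67 and P74. It was 31.5, 31.9 and 30.5 FPKM in C79, C84 and C85 and 28.1, 17.8 and 21.8 in E75, E77 and E90. E77 was the model library nearest to the healthy range, and the 3 C libraries were above all others. Csf2ra rose by 0.79 ± 0.18 in P (1.78 times, limma adjusted p = 0.015), by 1.12 ± 0.18 in C (2.22 times, adjusted p = 0.0042) and by 0.64 ± 0.18 in E (1.60 times, adjusted p = 0.038). The call in P was lost without H2, P66 or P67 (adjusted p 0.053 to 0.074) and that in E in 11 of 18 alternatives (0.053 to 0.120), so these 2 calls lay close to the threshold.

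Csf2rb, on chromosome 15 (78325752-78353847, plus strand), was scarce in healthy cord, at 0.275, 0.240 and 0.304 FPKM in H1, H2 and H4, or 32.1 to 38.2 recovered reads. It was 3.43, 2.53 and 1.11 FPKM in P66, P67 and P74, 1.38, 2.78 and 1.89 in C79, C84 and C85, and 2.50, 1.61 and 2.98 in E75, E77 and E90. Every model library was above every healthy one, with a spread among the 9 of 3.09 times between P74 and P66, the widest of the members. The mean of P was 8.63 times that of H, the highest ratio among the members, and the log2 difference was 1.33 ± 0.25 (limma, adjusted p = 0.0068). With a pseudocount of 0.1 in place of 1 the difference was 2.59. The difference was 1.22 ± 0.25 in C (adjusted p = 0.014) and 1.38 ± 0.25 in E (adjusted p = 0.0053), and the C call was lost without C84 or without H2 (adjusted p = 0.057 in both). The level of Csf2ra was 41.9 to 58.1 times that of Csf2rb in H and 8.57 to 18.4 times in P.

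Csf2rb has a near copy, Csf2rb2, the mouse-specific chain of the interleukin-3 receptor, which lies next to it on chromosome 15. Of the 50-base windows in their transcripts, 12.3% of those of Csf2rb and 18.4% of those of Csf2rb2 occur in the other, so the split of reads between them is uncertain. Csf2rb2 was 0.142, 0.0946 and 0.226 FPKM in H1, H2 and H4, against 2.90, 1.99 and 0.727 FPKM in P66, P67 and P74. Both genes were low in H and in the same order within P, and Csf2rb2 rose by 1.24 ± 0.26 in P (limma, adjusted p = 0.011).

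Csf3r, on chromosome 4 (126024550-126044440, plus strand), was 3.52, 2.28 and 3.06 FPKM in H1, H2 and H4. It was 23.7, 17.6 and 11.5 FPKM in P66, P67 and P74, 11.9, 17.2 and 13.1 in C79, C84 and C85, and 13.01, 11.04 and 13.6 in E75, E77 and E90. The model libraries began at 11.04 FPKM, above 3 times the highest healthy one. The difference was 2.19 ± 0.22 in P (5.95 times, limma adjusted p = 0.00027), 1.93 ± 0.22 in C (adjusted p = 0.00081) and 1.79 ± 0.22 in E (adjusted p = 0.00079), and each held in all 18 alternatives. Of markers of neutrophils, none of the 7 tested of 10 listed was called by limma in P, C or E against H. Of all genes tested, 12.2, 7.25 and 11.1% were called higher there, so with 7 genes the count lay near the background. The median difference of the 7 in P was 0.01. The summed level of all 10 was 19.7 to 25.3 FPKM in H, 14.2 to 32.1 in P, 14.2 to 40.2 in C and 8.62 to 24.1 in E. Ly6g, a surface protein of mouse neutrophils, reached at most 0.367 FPKM and was listed at 0 in 3 libraries. It was not tested, and neither were Cxcr2 and Elane. Cxcr2 was 0.0190 to 0.0716 FPKM in H, 0.0965 to 0.189 in P, 0.0211 to 0.128 in C and 0.174 to 0.219 in E. Elane was 0 to 0.182 FPKM in H, 0.0589 to 0.418 in P, 0.0551 to 0.0654 in C and 0.113 to 0.600 in E.

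**Figure D3:**
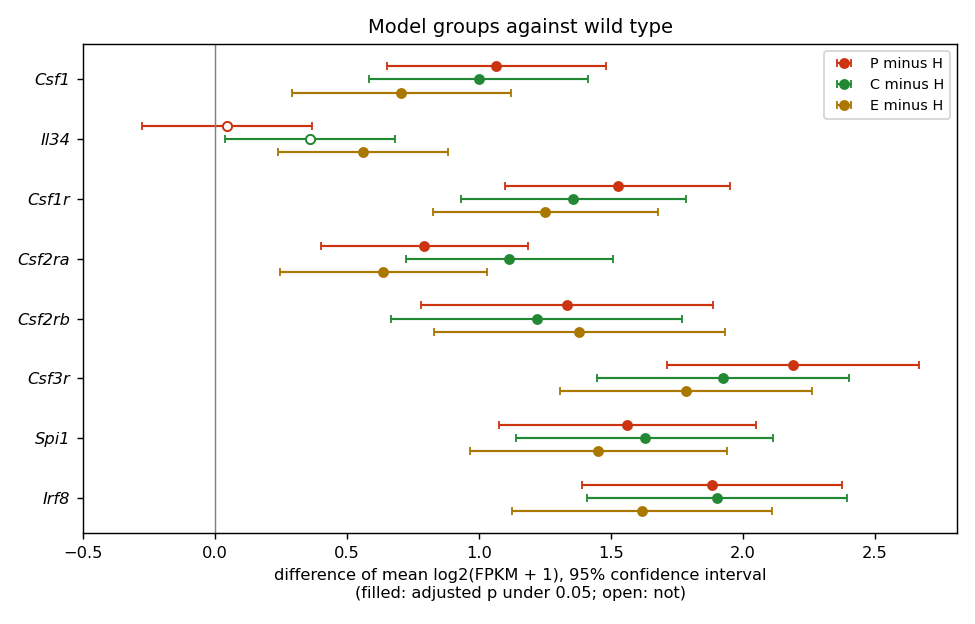
Differences of mean log2(FPKM + 1) of groups P, C and E from group H (horizontal axis) for the 8 genes (vertical axis), with 95% confidence intervals of the limma fit; filled points are called and open points are not. Csf3r and Irf8 lie farthest to the right, and Il34 is the gene with open points, in P and C.

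The transcription factors were both low in healthy cord. Spi1, on chromosome 2 (91082390-91115756, plus strand), was 0.708, 0.810 and 1.46 FPKM in H1, H2 and H4. It was 6.45, 5.41 and 3.10 FPKM in P66, P67 and P74, 4.53, 6.10 and 4.73 in C79, C84 and C85, and 5.02, 3.33 and 4.996 in E75, E77 and E90. H4 was the high healthy library, and the lowest model library, P74, was still above it. Spi1 rose by 1.56 ± 0.22 in P (5.03 times, limma adjusted p = 0.0016), by 1.63 ± 0.22 in C (adjusted p = 0.0017) and by 1.45 ± 0.22 in E (adjusted p = 0.0022).

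Irf8, on chromosome 8 (120736358-120756694, plus strand), varied little among healthy mice, at 0.819, 0.889 and 0.820 FPKM in H1, H2 and H4. It was 8.63, 5.81 and 3.78 FPKM in P66, P67 and P74, 5.04, 6.58 and 6.13 in C79, C84 and C85, and 5.32, 3.28 and 5.69 in E75, E77 and E90. The groups H and model were wide apart, with E77 the lowest model library. Irf8 rose by 1.88 ± 0.23 in P (7.21 times, limma adjusted p = 0.00070), by 1.90 ± 0.23 in C (adjusted p = 0.00096) and by 1.62 ± 0.23 in E (adjusted p = 0.0014). The calls of both factors held in all 18 alternatives. With a pseudocount of 0.1 the differences in P were 2.22 for Spi1 and 2.63 for Irf8. Irf8 overlaps Gm20388, a protein-coding gene on the same strand, whose level is not given here. Strand alone would not separate reads of these overlapping genes.

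In healthy cord the members ranked by mean FPKM as Csf1r (17.7 ± 0.64), Csf2ra (14.1 ± 3.16), Csf1 (10.9 ± 1.48), Il34 (7.05 ± 1.77), Csf3r (2.95 ± 0.62), Spi1 (0.992 ± 0.41), Irf8 (0.843 ± 0.040) and Csf2rb (0.273 ± 0.032; SD, n = 3). Among neighbours in this order, the libraries of Csf1r and Csf2ra, of Csf2ra and Csf1, and of Spi1 and Irf8 overlapped, and those of the other neighbours did not. In P the order of the first places was Csf1r (54.0 ± 14.2), Csf2ra (25.1 ± 4.50), Csf1 (24.5 ± 6.77) and Csf3r (17.6 ± 6.09), so Csf3r stood above Il34 (7.20 ± 0.86) there.

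Against healthy mice the carbon-dot group had 7 of 8 members called, all higher (background 7.25% called higher), and again not Il34. The group read as edaravone had 8 of 8 called, all higher (background 11.1%). With the 9 model mice set together against H, 7 of 8 were called higher (background 16.4%), and Il34 had a difference of 0.32 ± 0.12 (limma, adjusted p = 0.077). Without H4 that difference was 0.49 and called (adjusted p = 0.014), and without H1 it was 0.18 (adjusted p = 0.339). These comparisons share the 3 healthy libraries. Under median-ratio scaling the calls of all genes in P against H were 53.2% higher in place of 78.9%, in C 66.98% in place of 87.2% and in E 58.4% in place of 83.7%, and the members called in E fell to 5 of 8, without Csf1, Il34 and Csf2ra.

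No member was called between a treated group and the saline group or between the treatments. For C against P, 0 of 8 passed limma's test, with 0 at an unadjusted p under 0.05, where 0.00552% of all genes were called and 1802 of 18118 had an unadjusted p under 0.05. For E against P, 0 of 8 passed with 1 at an unadjusted p under 0.05, where 0% of genes were called and 889 had an unadjusted p under 0.05. For C against E, 0 of 8 passed with 1 at an unadjusted p under 0.05, where 0.171% of genes were called and 1991 had an unadjusted p under 0.05. The count was 0 in each of the 18 alternatives too, limma-voom included. The 95% intervals over the members reached from -0.74 to 0.72 for C against P, from -0.88 to 0.84 for E against P, and from -0.71 to 0.87 for C against E.

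The member nearest to a difference from saline was Il34. It was higher in E than in P by 0.52 ± 0.15 (unadjusted p = 0.0045, limma adjusted p = 0.446), with no overlap between the libraries. In C it was higher than in P by 0.32 ± 0.15 (unadjusted p = 0.053, adjusted p = 0.511), again with no overlap. Csf2ra was higher in C than in P by 0.32 ± 0.18 (adjusted p = 0.583) and than in E by 0.48 ± 0.18 (unadjusted p = 0.021, adjusted p = 0.377), with no overlap in either. Libraries did not overlap in 2 of 8 members for C against P, where 17.1% of all genes tested were separated in this way. They did not overlap in 1 of 8 for E against P and 1 of 8 for C against E, where 9.01 and 16.9% of genes were, so these counts lay near the background. The differences of Csf1 were -0.07 ± 0.19 in C and -0.36 ± 0.19 in E against P, those of Csf1r -0.17 ± 0.19 and -0.27 ± 0.19, and those of Csf3r -0.26 ± 0.22 and -0.40 ± 0.22, and none of these passed. Leaving out single libraries turned the sign of the C against P difference for Csf1, Csf1r, Csf2rb, Spi1 and Irf8.

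**Figure D4:**
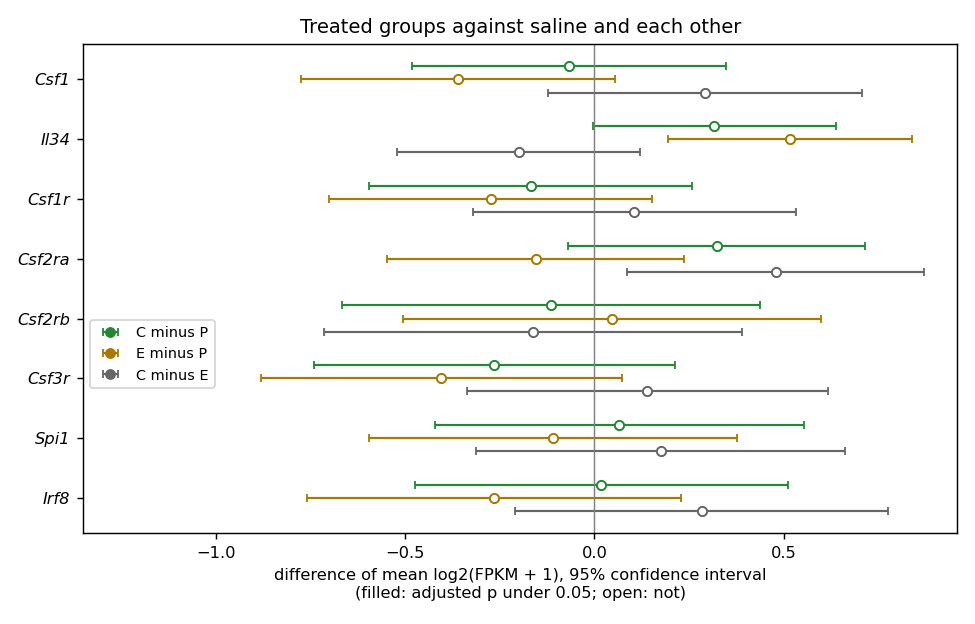
Differences of mean log2(FPKM + 1) between C and P, E and P, and C and E (horizontal axis) for the 8 genes (vertical axis), with 95% confidence intervals of the limma fit. All points are open, since none was called; the interval of Il34 in E minus P and that of Csf2ra in C minus E lie to the right of 0.

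The members ordered the mice of a group in much the same way. P66 was the highest library of P in 7 of 8 members and P74 the lowest in 7 of 8, Il34 being the exception in both. C84 was the highest of C in 8 of 8 and C79 the lowest in 7 of 8. E77 was the lowest of E in 8 of 8. The members of a library share its tissue and its depth, so these orders are not independent of each other.

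Microglial markers moved with the members, and their part in the results was not tested. Of 10 microglial markers, 9 were called higher in P, 8 in C and 8 in E against H (background 12.2, 7.25 and 11.1%). Their summed level was 68.2 to 84.1 FPKM in H, 187.6 to 369.6 in P, 196 to 253.6 in C and 172.3 to 232.5 in E. Their mean log2 level, taken as a microglial score, was 2.55 ± 0.20 in H, 4.11 ± 0.50 in P, 4.04 ± 0.10 in C and 3.82 ± 0.21 in E (SD, n = 3). The level of a member less this score was then compared between P and H. Because both terms depend on the pseudocount for low genes, the value with a pseudocount of 0.1, an alternative chosen after seeing the data, is given second. Csf3r and Irf8 stood higher relative to the score in P than in H under both, by 0.62 and 0.64 for Csf3r and by 0.32 and 0.78 for Irf8. Csf1, Csf2ra and Il34 stood lower relative to it under both, by -0.50 and -0.73 for Csf1, -0.77 and -1.02 for Csf2ra, and -1.52 and -1.80 for Il34. Csf1r differed by -0.04 and -0.28. Spi1 differed by -0.003 and 0.36, and Csf2rb by -0.23 and 0.74, so the sign of these 2 low genes turned with the pseudocount. Csf2rb differed by -0.27 and 0.67 in C and by 0.10 and 1.14 in E. These are descriptions with no test, and cell number and RNA per cell enter both terms.

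**Figure D5:**
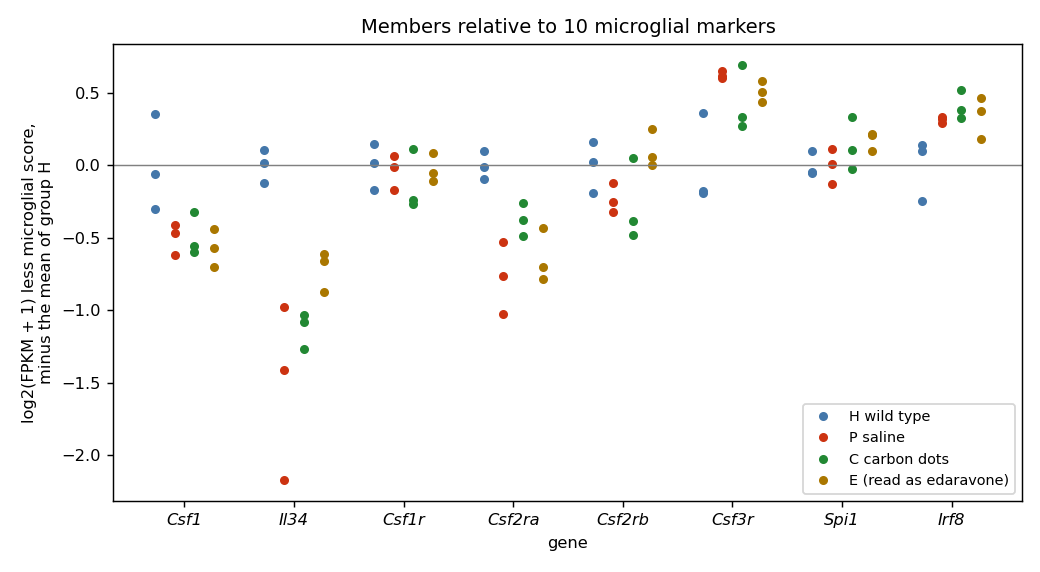
Log2(FPKM + 1) of each member less the mean log2(FPKM + 1) of 10 microglial markers in the same library, minus the mean of that quantity in group H (vertical axis), for the 8 genes (horizontal axis); points are libraries, coloured by group. With this pseudocount of 1, the means of Csf1r are -0.039 in P, -0.131 in C and -0.023 in E. Those of Spi1 are -0.003 in P, 0.139 in C and 0.178 in E. Csf3r and Irf8 lie above 0 in the 9 model libraries. Csf1, Csf2ra and Il34 lie below 0 in them, with P66 lowest for Il34. For Csf3r groups H and C overlap. Before the mean of H is subtracted, H1 (-0.214) lies above C79 (-0.241) and C85 (-0.304). With a pseudocount of 0.1, not drawn, the means of Csf1r were -0.28 in P, -0.38 in C and -0.25 in E. Those of Spi1 were then 0.365 in P, 0.526 in C and 0.554 in E.

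Markers of other cells that can carry these receptors were counted too. The background was 12.2% of genes called higher in P, 7.25% in C and 11.1% in E against H. Of 7 border macrophage markers tested, 1 was called higher in P, 1 in C and 3 in E, and their summed level (all 8 listed) was 1.05 to 3.34 FPKM in H, 2.74 to 7.19 in P, 5.57 to 8.16 in C and 5.94 to 11.7 in E. Of 5 blood monocyte markers, 1 was called higher in P, 0 in C and 1 in E (3.601 to 5.61 FPKM in H, 4.77 to 7.61 in P, 5.30 to 6.38 in C and 5.30 to 8.02 in E). Of 3 T and NK cell markers tested, 2 were called higher in P, 0 in C and 2 in E (1.51 to 2.54 FPKM over the 8 listed in H, 4.42 to 6.005 in P, 2.82 to 4.69 in C and 3.53 to 7.97 in E). Of 3 B cell markers tested none was called by limma in P, C or E (0.475 to 1.32 FPKM over the 5 listed in H and 1.02 to 1.11 in P). For dendritic cells 1 of 3 tested was called higher in each model group, and the summed level of the 6 listed was 1.19 to 1.62 FPKM in H, 7.76 to 19.1 in P, 7.81 to 12.1 in C and 7.32 to 12.4 in E. Most of that was Itgax, an integrin that activated microglia also express, at 6.43 to 17.7 FPKM in P, while Xcr1 and Ccr7 stayed under 0.2 FPKM. Cd209a, not tested, reached at most 0.0365 FPKM in H, 0.0372 in P, 0.106 in C and 0.376 in E. For mast cells and eosinophils 1 of 2 tested was called higher in each model group (0.353 to 0.637 FPKM over the 6 listed in H, 1.87 to 3.83 in P, 1.96 to 2.68 in C and 1.82 to 3.19 in E). In P and C most of that was Siglecf. Siglecf was 0.137 to 0.332 FPKM in H, 1.56 to 3.51 in P, 1.82 to 2.41 in C and 1.32 to 1.84 in E. Epx reached at most 0.484 FPKM, and Cpa3, Mcpt4 and Prg2 stayed below that. Tpsb2, a mast cell protease, was listed at 0 in H, P and C and reached 0.717 FPKM in E, the value of 1 library. Cpa3 was 0.0779 to 0.257 FPKM in E and at most 0.0760 in P, whereas Mcpt4 was highest in P (0.233) and Prg2 in H (0.213). Ccr2, a receptor of blood monocytes, was 0.0161 to 0.273 FPKM in H and 0.174 to 0.352 in P. It was 0.214 to 0.313 FPKM in C and 0.346 to 0.734 in E. The other monocyte markers differed among themselves in E. Chil3 was 0.802 to 2.52 FPKM in H and 0.546 to 1.90 in E. Ly6c2 was 0.0398 to 0.148 in H and 0.0813 to 0.326 in E, and Plac8 0.0685 to 0.436 and 0.245 to 0.861. Vcan was 2.67 to 3.068 in H and 3.071 to 4.41 in E. Of 6 astrocyte markers, 5 were called higher in P, and of 7 neuronal markers, 5 were called lower (background 3.26% called lower). The part of these cells in the members' levels was not tested.

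Of 13 listed genes for other ligands and receptors around the axis, 8 could be tested. The background was again 12.2% of all genes tested called higher in P, 7.25% in C and 11.1% in E against H. In P against H 3 of the 8 were called, all higher (median difference of the 8 0.47, beside 0.07 over all genes tested). Besides Csf2rb2 these were Ptprz1, a receptor phosphatase that also binds interleukin-34 (0.58 ± 0.10, limma adjusted p = 0.0039, 11.9 ± 1.003 FPKM in H and 18.2 ± 2.09 in P), and Flt3l, the ligand of the Flt3 receptor of dendritic cell precursors (0.43 ± 0.11, adjusted p = 0.023). In C the 3 called genes, all higher, were Csf2rb2, Flt3l and Sdc1, a proteoglycan that binds interleukin-34 (0.56 ± 0.16, adjusted p = 0.049995), and Ptprz1 was not called (0.23 ± 0.10, adjusted p = 0.170). In E all 4 of these genes were called higher. The ligand genes Csf2, Csf3, Il3 and Il5 and the receptor gene Il5ra were set aside as too low. Csf2, the ligand of the receptor formed by Csf2ra and Csf2rb, was above 0 in 1 of 12 libraries, with 1 read. Csf3, the ligand of Csf3r, was above 0 in 8 libraries and reached at most 0.355 FPKM.

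All 30 genes listed as signalling below these receptors were tested. Against H, 16 were called in P (background 12.2% called higher), 15 in C (7.25%) and 16 in E (11.1%). All of the called genes were higher. The median difference of the 30 in P was 0.52, beside 0.07 over all genes tested. Tyrobp, an adaptor of myeloid receptors that works with the Csf1 receptor, had the largest difference (2.81 ± 0.41, limma adjusted p = 0.0021, 8.98 ± 4.73 FPKM in H and 69.7 ± 33.0 in P). Ptpn6, a phosphatase that restrains myeloid receptors, rose by 1.96 ± 0.22 (adjusted p = 0.00056). Socs3, an inhibitor of cytokine receptors that acts on the Csf3 receptor, rose by 1.70 ± 0.27 (adjusted p = 0.0026), and the Src-family kinase Lyn by 1.63 ± 0.21 (adjusted p = 0.0010). The list thus held both activators and inhibitors among its called members.

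Of 30 other transcription factors of myeloid cells 24 were tested. Against H, 12 were called in P (background 12.2% called higher), 9 in C (7.25%) and 10 in E (11.1%). All of the called factors were higher. The median difference of the 24 in P was 0.45, beside 0.07 over all genes tested. Irf5, a factor of inflammatory macrophages, rose by 1.35 ± 0.17 (limma, adjusted p = 0.00093), and Cebpa, a partner of PU.1 in the myeloid lineage, by 1.30 ± 0.18 (adjusted p = 0.0016). Egr2, which acts in macrophages and in myelinating Schwann cells, rose by 1.34 ± 0.29 in P (adjusted p = 0.013), from 0.204 ± 0.19 to 2.07 ± 0.66 FPKM, and was 4.66 ± 2.65 FPKM in E, the group with the highest Schwann cell markers. The part of those markers in it was not tested.

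The last list held 12 genes of cell division, a process that the Csf1 receptor drives in microglia. Against H, 9 were called in P (background 12.2% called higher), 7 in C (7.25%) and 6 in E (11.1%). All of the called genes were higher. The median difference of the 12 in P was 0.47, beside 0.07 over all genes tested. Ccnd1, the cyclin of entry into the cycle, rose by 1.39 ± 0.20 (limma, adjusted p = 0.0018), from 3.78 ± 0.75 to 11.6 ± 2.61 FPKM. Top2a, a topoisomerase of dividing cells, rose by 1.002 ± 0.16 (adjusted p = 0.0033), Rrm2, a subunit of ribonucleotide reductase, by 0.97 ± 0.20 (adjusted p = 0.0092), and Mki67, the Ki-67 protein of cycling cells, by 0.85 ± 0.14 (adjusted p = 0.0036). The levels of Top2a and Mki67 in P were low, at 1.46 ± 0.63 and 1.31 ± 0.42 FPKM. In C against P and in E against P, 0 genes of these 4 lists were called by limma, where 0.00552 and 0% of all genes were. The cells that carried these transcripts cannot be told from bulk tissue.

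Genes whose pattern over the 12 libraries was most like that of a member were taken as the 3 of highest Pearson r of log2(FPKM + 1). Since the healthy and model libraries form separate groups, r is a measure of likeness only and carries no test. For Csf1 they were Itgb5 (r = 0.986), Actb (0.983) and Msn (0.980). For Il34 they were Plk5 (0.927), Frzb (0.917) and Ercc1 (0.908), the lowest set of values among the members. For Csf1r they were Clu (0.992), Sirpa (0.992) and Man2b1 (0.992), and for Csf2ra Thbs3 (0.976), Aif1 (0.974) and Coro1a (0.970). For Csf2rb they were Myof (0.994), Psd4 (0.991) and Slc15a3 (0.990), and for Csf3r Elf4 (0.993), Laptm5 (0.991) and Itgax (0.991). For Spi1 they were Clcf1 (0.996), Gmip (0.995) and C1qb (0.994; the healthy mean was 34.8 and the model mean 192.2 FPKM), and for Irf8 Ctsd (0.997; 55.6 and 230 FPKM), Myo1f (0.996) and Ctsz (0.996). Aif1 and Laptm5 also belong to the microglial score.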

How the data were processed

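The authors deposited 4 tables, 1 per group, of values that the headers do not name. They were read as FPKM from the deposited values. Multiplied by GENCODE M21 union exon length, low values (up to 50 steps) were whole multiples of a step found for each library in 95.3 to 95.7% of cases, with a tolerance of 0.02. Recovered reads summed to 106.6 to 108.0% of the implied scaling total of 15.5 to 18.4 M, for reasons that are unknown. Reads had been processed with tools that include cutadapt, HISAT2 and featureCounts on build GRCm38, per the submitters' processing notes. No source used here gives their versions or the strand setting. Of 33906 identifiers 33829 matched GENCODE M21.

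Genes entered the test with 10 or more recovered reads (as CPM of the median library) in 3 or more libraries and 15 or more over all libraries, and 15788 were set aside. limma 3.58.1 in R 4.3.3 was fitted to log2(FPKM + 1) of all 12 libraries, 1 mean per group (8 residual degrees of freedom), with trended, robust variances and Benjamini-Hochberg adjustment, and was tested on simulated data. Exact permutation tests used scipy 1.17.1. Alternatives were a pseudocount of 0.1, no filter, an FPKM filter (0.5 in 3 libraries), median-ratio scaling, limma-voom on recovered reads, the compared groups alone, and each library left out. The pseudocount of 0.1 for levels relative to the microglial score was added after seeing the data.

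Members, lists and the rule for named genes were chosen with earlier results of these data known. The rule took all members, up to 4 called genes of largest change in P against H from each pathway list, and the 3 genes most like each member. Some genes singled out beyond this, such as cell type markers and untested ligands, were named after their values were seen. A result that the rule would name is not reported here.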

Additional observations from a re-analysis of the deposited data

How the results depend on the processing

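Over the 18 alternatives (17 for the model mice together) the number of members called ranged from 6 to 7 in P against H, 6 to 8 in C against H and 5 to 8 in E against H, from 7 to 8 for the model mice together, and was 0 for C against P, E against P and C against E. In E against H it was 5 under median-ratio scaling and 5 with no filter, and 5 to 8 with single libraries left out (5 without E75, without E90 or without H2). Il34 in P against H turned to -0.0663 with limma-voom and to -0.0543 with median-ratio scaling, and ranged from -0.10 to 0.21 with libraries left out. Other differences that turned sign with a library left out, none of them called, ranged as follows. In C against P they were -0.28 to 0.12 for Csf1, -0.373 to 0.0092 for Csf1r, -0.42 to 0.12 for Csf2rb, -0.19 to 0.25 for Spi1 and -0.23 to 0.27 for Irf8. In E against P they were -0.25 to 0.28 for Csf2rb and -0.360 to 0.0709 for Spi1, and in C against E -0.0588 to 0.225 for Csf1r and -0.0045 to 0.243 for Csf3r. The Csf1 to Il34 balance ranged from -0.0612 to 0.387 in E against H, and from 0.40 to 0.84 for the model mice against H. In the latter the exact permutation p was 0.036 without H1, 0.036 without E75 and 0.048 without E77. These p were not adjusted over the 7 comparisons, and that without H1 is the smallest the test allows there. The cause of these changes was not tested. Relative to the microglial score, with a pseudocount of 0.1, the difference of P from H was -0.728 for Csf1, -0.281 for Csf1r, -1.02 for Csf2ra, 0.736 for Csf2rb, 0.365 for Spi1 and 0.781 for Irf8, and for Csf2rb it was 0.674 in C and 1.14 in E. Genes called over all settings ranged from 933 to 3535 (main 2807) in P against H, 567 to 1976 (1505) in C, 1159 to 2795 (2393) in E, 1555 to 4302 (3733) for the model mice together, 0 to 5 (1) in C against P, 0 to 3 (0) in E against P and 0 to 56 (31) in C against E. With no filter they were 1444, 736, 1469 and 2468 in the first 4. No paired analysis was possible because no replicate number is shared between groups. Of the members, Csf2rb and Spi1 had the fewest recovered reads in healthy cord, 32.1 to 38.2 and 32.0 to 68.0 per library.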
